A study of Oncorhynchus mykiss with 15 samples.

Results

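Liver microRNAs of rainbow trout after 3 h of reoxygenation were set against those after 24 h of hypoxia, to see which of the miRNAs displaced by hypoxia were back at control levels and which were not. All rows of the deposited miRNA table were taken, and rows with the same 15 values were counted once as 1 profile, so that 1213 rows gave 1019 distinct profiles. The 622 profiles that averaged at least 10 across the series were tested. The comparison uses 6 of the 15 libraries, 3 of 3 h reoxygenation and 3 of 24 h hypoxia, and the 3 control libraries serve as the starting level. The remaining libraries are of 3 h and 12 h hypoxia. All 15 enter 1 fit with a shared estimate of the spread, on which every standard error, interval and p-value rests. The 12 h libraries are also set against control. Every group was liver of wild-type rainbow trout (Oncorhynchus mykiss). The labels call the treatments reoxygenation, hypoxia stress and control. They give neither the age of the fish nor the number of fish behind a library, and they do not say how long the reoxygenated fish had been hypoxic before. Nothing says that the 3 libraries of a group came from separate fish, so p-values here cover the spread from sample to sample only, which may be technical.

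MicroRNAs are short RNAs that load into Argonaute proteins and lower the output of messenger RNAs by pairing with them, mostly through the seed near the 5′ end. Mature miRNAs are often long-lived, so their levels can lag behind changes in the transcription of their genes. Low oxygen stabilises hypoxia-inducible factors, which induce a set of genes that includes miR-210 in mammals, and the return of oxygen lets these factors be degraded again.

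A selection of miRNAs is printed here in the form that was deposited, 5′ to 3′, with T in place of U and with the seed (bases 2 to 8) in capitals. They were picked from the salmon-named members that stayed displaced, returned or stood apart between reoxygenation and hypoxia, and other such members are not printed. A relative with the same seed stands beside a member where one was abundant. In a name, ssa is Atlantic salmon, the species of the matched catalogue entry. R or L with a number marks bases added to or missing from the right or left end, and ss marks a substitution.
ssa-miR-101b-3p_R+1: tACAGTACtatgataactgaag
ssa-miR-101a-3p: tACAGTACtgtgataactgaag
ssa-miR-19a-3p_R+1: tGTGCAAAtctatgcaaaactgt
ssa-miR-19c-3p: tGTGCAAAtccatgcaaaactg
ssa-miR-15a-5p_L-2_1ss18GA: tAGCAGCAcgtcatgatttgt
ssa-miR-15d-5p: tAGCAGCAcagaatggtttgt
ssa-miR-16a-5p: tAGCAGCAcgtaaatattggag
ssa-miR-25-3p: cATTGCACttgtctcggtctga
ssa-miR-92a-3p: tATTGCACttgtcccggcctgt
ssa-miR-22b-3p: aAGCTGCCagttgaagagctgt
ssa-miR-22a-3p: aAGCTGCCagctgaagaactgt
ssa-miR-29b-3p: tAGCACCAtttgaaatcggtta
ssa-miR-107-3p: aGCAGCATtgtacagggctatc
ssa-miR-146a-5p: tGAGAACTgaattccatagatgg
Counted from 1 at the 5′ end, miR-101b and miR-101a differ by A10G, outside the seed, and miR-19a and miR-19c by T11C. miR-22b and miR-22a differ by T11C and G18A. Forms this close can share reads, so the split of a signal between them is uncertain.

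Library 1 of both groups stood apart from the other libraries, before any comparison between groups. Across the 622 profiles, the Spearman correlation between libraries 2 and 3 of reoxygenation and libraries 2 and 3 of 24 h hypoxia was 0.90 to 0.94, about the same as within reoxygenation (0.92) and within 24 h hypoxia (0.93). Library 1 of reoxygenation reached only 0.68 with the other libraries of its own group, against 0.80 with library 1 of 24 h hypoxia. Libraries 2 and 3 correlated with the control libraries at 0.80 to 0.86 after reoxygenation and at 0.81 to 0.87 after 24 h hypoxia. These correlations are across profiles, which are not independent replicates, and high values are shared by all liver libraries. Of the 126 tested profiles whose names carry only mammalian prefixes, 57 (45.2%) were highest of all 15 libraries in library 1 of reoxygenation, against 52 of the 496 others (10.5%). These mammal-named profiles summed to 134893 in library 1 of reoxygenation, with 30907 and 26245 in libraries 2 and 3, against 30911, 32326 and 33994 after 24 h hypoxia. Column totals over distinct profiles were 4791570, 2663505 and 4214194 after reoxygenation, against 6181106, 3048356 and 2820841 after 24 h hypoxia. How many reads lie behind a value is unknown, because the deposited values are normalized. What sets library 1 apart was not tested, and results are given with both libraries 1 and without them.

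**Figure D1:**
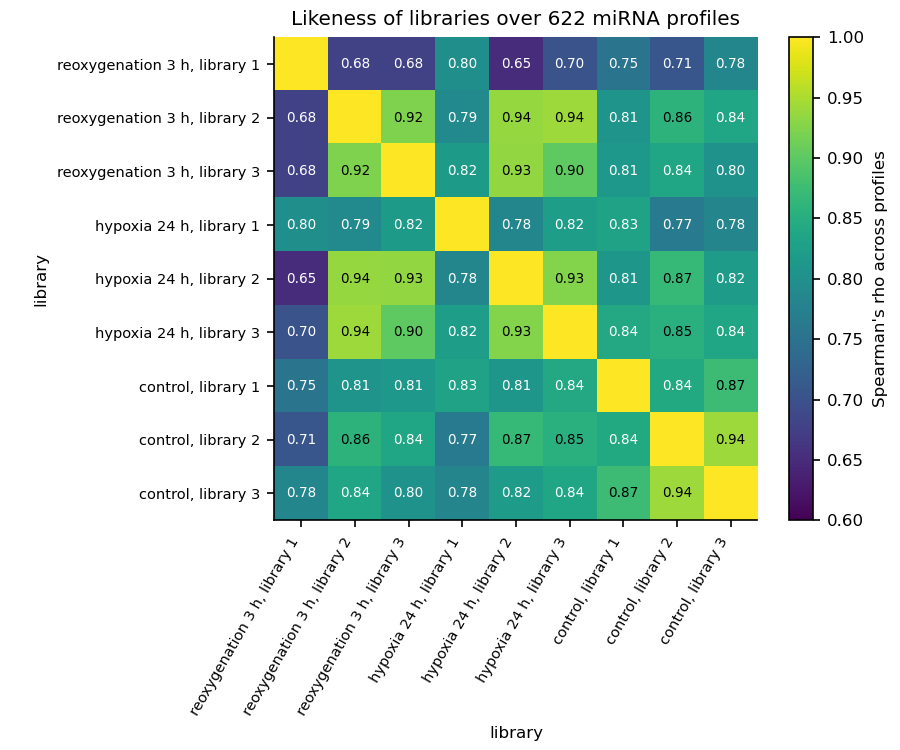
Spearman correlation, across the 622 tested profiles, between pairs of the 9 libraries of reoxygenation, 24 h hypoxia and control. Libraries 2 and 3 of reoxygenation and of 24 h hypoxia correlate with each other at 0.90 to 0.94, and library 1 of reoxygenation reaches 0.68 with its own group.

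No profile differed between 3 h of reoxygenation and 24 h of hypoxia by limma. Of 622 profiles, 0 (0%) had a Benjamini-Hochberg adjusted p under 0.05, and the smallest limma adjusted p was 0.985. At an unadjusted p under 0.05 there were 18 profiles (2.89%), 4 higher and 14 lower after reoxygenation. Without libraries 1 of both groups limma again called 0 profiles, with 21 (3.38%) at an unadjusted p under 0.05, 6 higher and 15 lower. In the 28 other settings tried limma also called 0, with 5 to 58 profiles at an unadjusted p under 0.05. The median log2 difference over all profiles was 0.03, and the median size of a difference, whichever its sign, was 0.48 against a median standard error of 0.73.

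The absence of a call does not show that the groups were alike. The 95% interval of the log2 difference lay within 1 unit either side of 0 for 27 profiles, and within 2 units for 288. In 148 profiles the estimate itself was at least 1 unit from 0. The 3 reoxygenation libraries lay wholly above the 3 hypoxia libraries for 13 profiles (2.09%) and wholly below them for 17 (2.73%), together 4.82% of those tested. With libraries 1 left out, 194 profiles (31.2%) did not overlap, a comparison of 2 libraries with 2. Groups this small often separate with no difference between them, the more so at 2 libraries each. Neither share is therefore read as a sign of a difference.

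**Figure D2:**
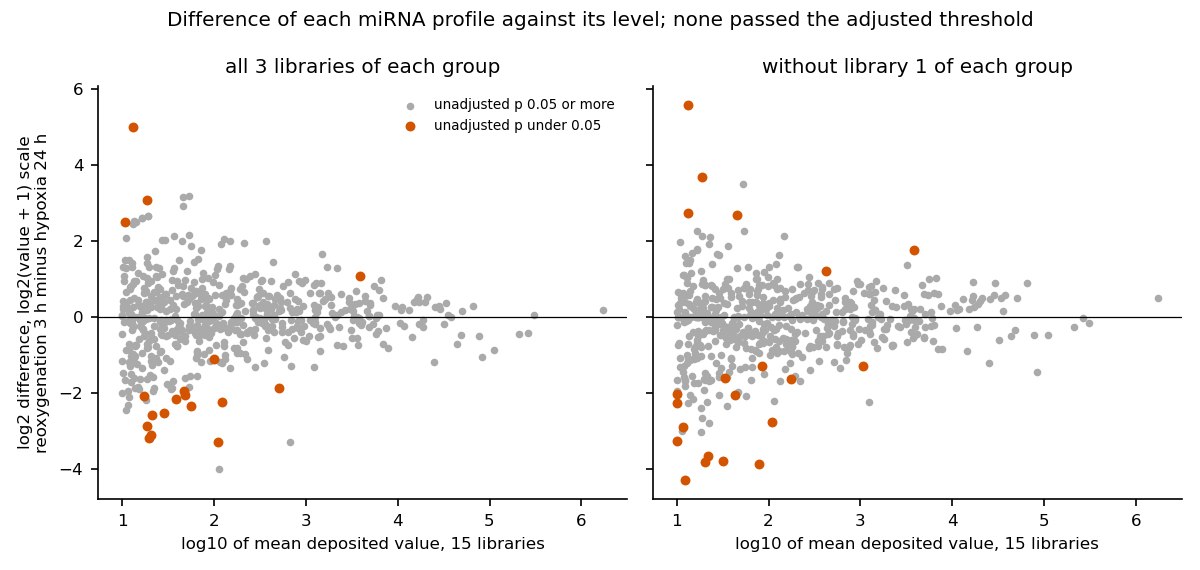
Log2 difference of reoxygenation minus 24 h hypoxia (vertical axis, log2(value + 1) scale) against the log10 of the mean deposited value (horizontal axis), 1 point per tested profile, with all libraries left and without libraries 1 right. The points at an unadjusted p under 0.05, 18 left and 21 right, are coloured, and none passed the adjusted threshold.

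To ask which miRNAs had come back, the profiles displaced at 24 h were listed first: those with all 3 hypoxia libraries beyond all 3 controls and a log2 difference of at least 1. There were 90 of 622 (14.5%), 34 higher and 56 lower after 24 h hypoxia than in control. After 3 h of reoxygenation 44 of them (48.9%) still had all 3 libraries beyond the controls on the same side, 20 of the higher and 24 of the lower profiles. The median reoxygenation library was inside the control range, or past it on the far side, in 10 (11.1%), 3 of the higher and 7 of the lower. The other 36 (40%) had exactly 1 reoxygenation library that was no longer beyond the controls on that side, which was library 1 in 7 of 11 higher and 21 of 25 lower profiles. Of those 21, 12 had only mammal-prefixed names, beside 126 of all 622 tested profiles and 10 of the 24 lower profiles that stayed. Of the 126, 57 were highest in library 1 of reoxygenation. Without libraries 1, 169 profiles were displaced, of which 129 (76.3%) stayed and 22 (13%) returned. Of the 44 profiles that stayed, 41 stayed again. Of the 10 that returned, 5 returned again. With fewer libraries the rules for displaced and stayed are easier to meet. A profile that stayed can then drop out only through the log2 cut-off. The counts without libraries 1 are therefore no check on the classes. All of these counts rest on the same hypoxia and control libraries that defined the displacement, so they are a description with no test. Liver was sequenced in bulk, where fewer cells of a type and less RNA per cell cannot be told apart.

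Against control, limma called 15 profiles after reoxygenation (2.41%), 11 higher and 4 lower, and 5 profiles after 24 h hypoxia (0.804%), 4 higher and 1 lower. Without libraries 1 these were 66 (10.6%) and 40 (6.43%), and most were then lower. They split into 24 higher and 42 lower after reoxygenation, and 12 higher and 28 lower after 24 h hypoxia. The comparisons share the control libraries. Scaling each library to its total moved the median log2 difference of all profiles against control by -0.40 in both, and 9 of the 15 reoxygenation calls and 2 of the 5 hypoxia calls remained. Split by direction, the 10 calls of that scaling after reoxygenation were 6 higher and 4 lower. After 24 h hypoxia its 3 calls were 1 higher and 2 lower. With the compared groups fitted alone, limma called 0 profiles between reoxygenation and control.

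Among the miRNAs that stayed high, miR-101b had the smallest adjusted p between reoxygenation and control. miR-101 is known in mammals as a repressor of the histone methyltransferase EZH2. ssa-miR-101b-3p_R+1 had values of 3697, 12705 and 9723 after reoxygenation, 4383, 3149 and 3413 after 24 h hypoxia, and 803, 277 and 499 in control. Every library of both treatments was above every control, and libraries 2 and 3 of reoxygenation were also above all hypoxia libraries. Its log2 difference from control was 4.00 ± 0.48 (SE, n = 3 each) after reoxygenation (limma adjusted p = 0.000362) and 2.91 ± 0.48 after 24 h hypoxia (limma adjusted p = 0.00743, or 0.0541 with library totals as the scale). Between reoxygenation and hypoxia it was 1.09 ± 0.48, at an unadjusted limma p of 0.0389 that did not pass adjustment, and 1.76 without libraries 1.

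The close relative ssa-miR-101a-3p had 1416, 1517 and 3249 after reoxygenation, 2724, 1055 and 1468 after 24 h hypoxia, and 771, 214 and 302 in control. The groups of treated libraries overlapped, and both lay above control. It was 2.37 above control on the log2 scale after reoxygenation (limma adjusted p = 0.0157), and differed by 0.24 ± 0.50 between reoxygenation and hypoxia.

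miR-19 belongs to the miR-17-92 cluster, which is known in mammals for promoting cell growth. ssa-miR-19a-3p_R+1 had 80, 889 and 443 after reoxygenation, 57, 242 and 261 after 24 h hypoxia, and 28, 8 and 6 in control. Libraries 2 and 3 were the high ones in both treated groups, and library 1 was low in each. Its log2 difference was 4.70 ± 0.91 between reoxygenation and control (limma adjusted p = 0.0100) and 1.04 ± 0.91 between reoxygenation and hypoxia. ssa-miR-19c-3p had 210, 917 and 511 after reoxygenation, 120, 431 and 401 after hypoxia, and 53, 37 and 41 in control, with a log2 difference of 3.39 from control after reoxygenation (limma adjusted p = 0.0112). Scaled to library totals, the limma adjusted p of these 2 differences from control were 0.0520 and 0.0966.

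The miR-15/16 family, which represses cell-cycle genes and the survival gene BCL2 in human cells, held the most abundant non-overlapping member on the high side. ssa-miR-15a-5p_L-2_1ss18GA had 11856, 10230 and 11118 after reoxygenation, 6401, 8174 and 5661 after 24 h hypoxia, and 1553, 2664 and 2727 in control. The 3 groups did not overlap, with reoxygenation highest. The log2 difference was 0.73 ± 0.40 between reoxygenation and hypoxia (95% interval -0.12 to 1.57) and 2.30 ± 0.40 between reoxygenation and control (limma adjusted p = 0.00740, or 0.0880 with library totals as the scale).

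ssa-miR-25-3p, a member of the miR-106b-25 cluster that carries the miR-92 seed, was close to the same level in both treated groups. It had 6196, 5289 and 4959 after reoxygenation, 6222, 6152 and 4431 after 24 h hypoxia, and 1889, 2311 and 2551 in control. The treated groups overlapped and each lay more than 1 log2 unit above control, by 1.29 ± 0.28 after reoxygenation (limma adjusted p = 0.0176) and by 1.31 ± 0.28 after 24 h hypoxia (limma adjusted p = 0.0364). Its reoxygenation minus hypoxia difference was -0.02, with a 95% interval of -0.62 to 0.57. Both calls against control were lost when libraries were scaled to their totals (limma adjusted p = 0.293 for reoxygenation). The seed-sharing ssa-miR-92a-3p did not differ from control by limma, with log2 differences of -0.29 after reoxygenation and -0.02 after 24 h hypoxia.

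ssa-miR-181a-1-3p, the passenger arm of miR-181a, had 4008, 2246 and 3755 after reoxygenation, 3002, 2256 and 1394 after 24 h hypoxia, and 1221, 640 and 702 in control. It was 1.98 above control on the log2 scale after reoxygenation (limma adjusted p = 0.0112). Summed over the 5 forms of miR-181a-3p this difference was 1.35 and was not called (limma adjusted p = 0.0785). bta-miR-2478_L-2, whose name is a cattle entry, had 9088, 14192 and 11425 after reoxygenation, 6218, 16226 and 13069 after hypoxia, and 1612, 2585 and 3211 in control. The limma adjusted p of its 2.26 log2 difference between reoxygenation and control was 0.0340, or 0.212 with library totals as the scale. 2 further profiles, mmu-miR-5099_L+2R-1 and the predicted candidate PC-3p-13989_144, were listed at 0 in all 3 controls. The first had 61, 26 and 19 after reoxygenation and 142, 37 and 109 after 24 h hypoxia, and the second 22, 25 and 21 after reoxygenation and 16, 23 and 19 after hypoxia.

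On the low side, the most abundant profile that stayed was ssa-miR-146a-5p, known in mammals as a brake on NF-kB signalling. It had 22723, 61512 and 21635 after reoxygenation, 33205, 52861 and 48065 after 24 h hypoxia, and 256593, 65914 and 63500 in control. The control group was spread widely through its library 1, and the highest reoxygenation library was close to the lowest control. Neither difference from control passed limma (adjusted p = 0.121 after reoxygenation and 0.330 after 24 h hypoxia), and reoxygenation minus hypoxia was -0.49 ± 0.54.

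ssa-miR-22b-3p, a less abundant paralogue of miR-22a, was also close to the same level in both treated groups. It had 249, 294 and 227 after reoxygenation, 260, 246 and 240 after 24 h hypoxia, and 411, 466 and 659 in control. The treated groups overlapped and lay wholly below control, and reoxygenation minus hypoxia was 0.04 ± 0.33. ssa-miR-33a-3p, the passenger arm of the miRNA that sits in a sterol-regulator gene in mammals, had 300, 420 and 179 after reoxygenation, 228, 408 and 274 after hypoxia, and 444, 658 and 724 in control. Neither passed limma against control, with adjusted p of 0.176 for miR-22b and 0.195 for miR-33a after reoxygenation.

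4 low profiles were called after reoxygenation by limma, and all 4 stayed below control in every reoxygenation library. cpi-let-7g-3p_1ss8GA, a passenger arm of let-7, had 206, 212 and 76 after reoxygenation, 112, 149 and 321 after hypoxia, and 530, 762 and 976 in control (limma adjusted p = 0.0172, or 0.0594 with library totals as the scale and 0.105 with GC correction). pal-miR-9226-5p_1ss4AG had 51, 25 and 7 after reoxygenation, 37, 11 and 179 after hypoxia, and 376, 358 and 691 in control (limma adjusted p = 0.0100). tni-miR-199_1ss18CG had 0, 6 and 0 after reoxygenation, 6, 6 and 17 after hypoxia, and 121, 173 and 91 in control (limma adjusted p = 0.00554). The summed forms named miR-199a-5p, which do not include this profile, gave a log2 difference of -0.82 between reoxygenation and control (limma adjusted p = 0.400). cfa-miR-486_R+1, a red blood cell miRNA, had 65, 0 and 0 after reoxygenation, 0 in all 3 hypoxia libraries, and 285, 145 and 161 in control (limma adjusted p = 0.0223, or 0.0601 with GC correction). The more abundant red blood cell miR-451 did not go with it. Its sums overlapped, at 6390, 2833 and 4526 after reoxygenation, 1849, 3741 and 3995 after hypoxia, and 2576, 2431 and 7172 in control. miR-144 summed to 280, 256 and 191 after reoxygenation, 76, 252 and 548 after hypoxia, and 423, 434 and 675 in control. These miR-144 sums lay wholly below control after reoxygenation, as those of miR-486 did, and overlapped control after hypoxia.

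sha-miR-92a_L+2R+4, a miR-92a form with changed ends that the study singled out, also stayed low. It had 14, 25 and 14 after reoxygenation, 20, 18 and 40 after 24 h hypoxia, and 63, 78 and 77 in control. The treated groups overlapped, and reoxygenation minus hypoxia was -0.49 ± 0.58. Its difference from control did not pass limma after reoxygenation (adjusted p = 0.0770).

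**Figure D3:**
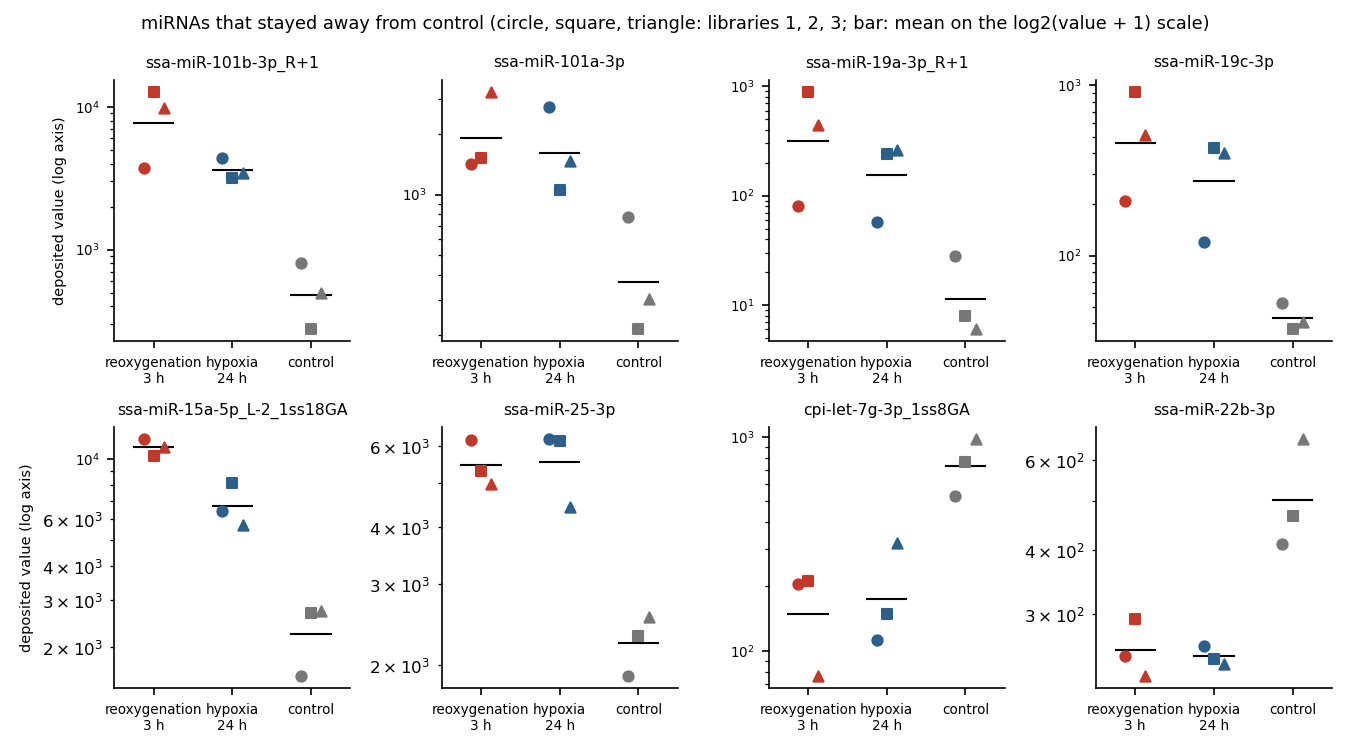
Deposited values (log axis) of 8 profiles that stayed displaced, 1 point per library (circle, square and triangle for libraries 1, 2 and 3), with reoxygenation left, 24 h hypoxia in the middle, control right and bars at group means on the log2(value + 1) scale. For ssa-miR-101b-3p_R+1 the control points lie at 277 to 803 and all treated points at 3149 or above, and for ssa-miR-22b-3p the treated points lie at 227 to 294 against 411 to 659 in control.

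The profiles that returned were few and mostly scarce. The only abundant ones were ipu-miR-7550 and ssa-miR-15d-5p. ipu-miR-7550, named after a channel catfish entry, had 1350, 1653 and 1508 after reoxygenation, 3440, 1669 and 3752 after 24 h hypoxia, and 789, 1618 and 957 in control. Reoxygenation lay wholly below hypoxia, though its highest library was close to the lowest of hypoxia, and the log2 difference was -0.89 ± 0.46 (95% interval -1.88 to 0.10). With GC correction the difference was -0.40, and ipu-miR-7550 was 1.61 above control after reoxygenation (limma adjusted p = 0.0536) in place of 0.49. It also returned without libraries 1. ssa-miR-15d-5p, which shares the seed of miR-15a, was displaced the other way: it had 4067, 3993 and 2268 after reoxygenation, 2143, 2793 and 2853 after hypoxia, and 3303, 8160 and 9173 in control. Reoxygenation and hypoxia overlapped, control library 1 was far below the other controls, and the profile was in between without libraries 1.

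The rest that returned were at 130 or below in every reoxygenation and hypoxia library. gga-miR-222b-3p_R-1 had 92, 97 and 78 after reoxygenation, 76, 52 and 52 after 24 h hypoxia, and 124, 87 and 198 in control, with no overlap between reoxygenation and hypoxia. ssa-miR-8163-3p had 130, 51 and 127 after reoxygenation, 80, 38 and 38 after hypoxia, and 113, 123 and 96 in control. ssa-miR-338a-3p_R-1 had 42, 59 and 73 after reoxygenation, 34, 45 and 23 after hypoxia, and 50, 123 and 128 in control, and also returned without libraries 1. For these 3 the reoxygenation minus hypoxia differences were 0.58, 0.94 and 0.77 on the log2 scale, and none passed limma even unadjusted. miR-222b and miR-8163 were in between without libraries 1.

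For the profiles in between, 1 library set the class. ssa-miR-128-3p had 7838, 18166 and 17660 after reoxygenation, 16451, 18675 and 12880 after 24 h hypoxia, and 8837, 6340 and 7612 in control. Libraries 2 and 3 of reoxygenation remained at the hypoxia level, while library 1 was at that of control. ssa-miR-200b-3p_R-1, a miRNA of epithelial cells, had 8223, 1010 and 3152 after reoxygenation, 3354, 2058 and 1720 after hypoxia, and 4938, 4900 and 6101 in control. Library 1 was again apart, above all controls. Both profiles were among the 27 of the 36 that stayed displaced without libraries 1. Where library 1 was the one back, leaving it out removes what had kept a profile out of that class.

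**Figure D4:**
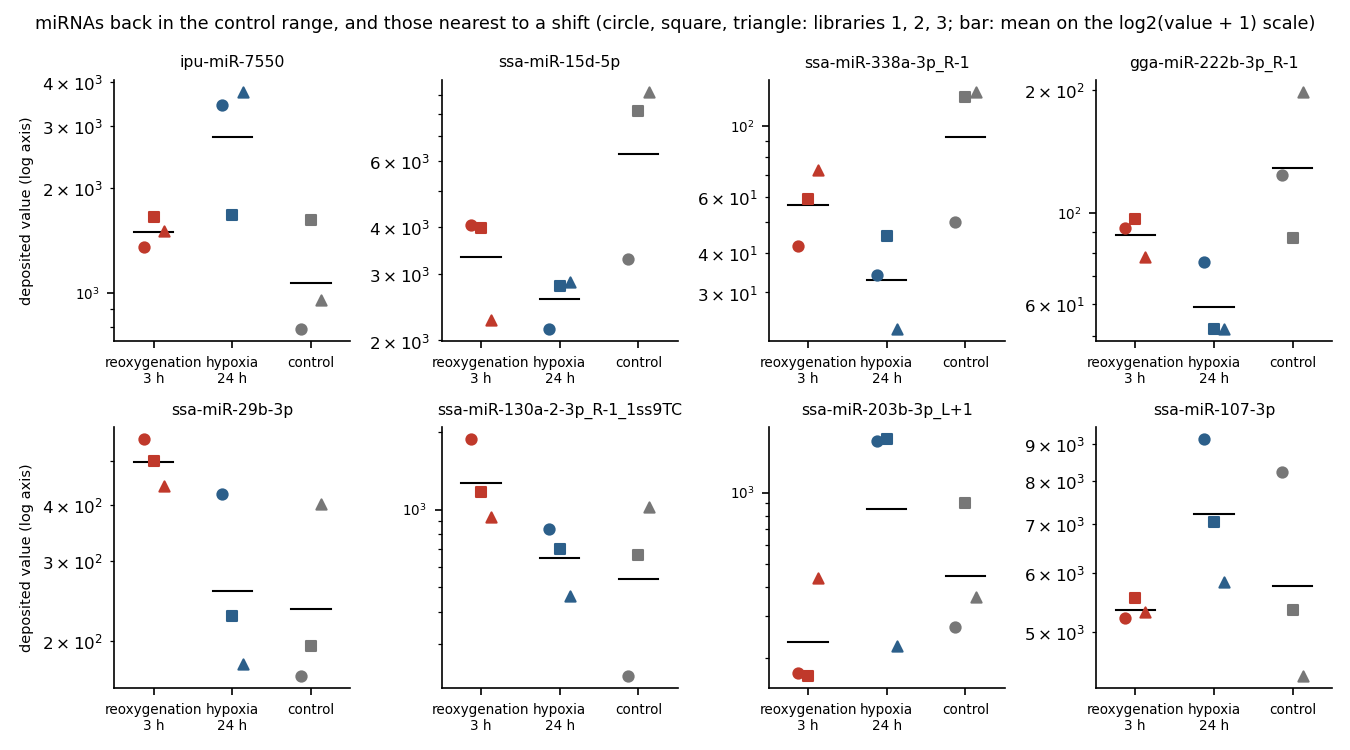
Deposited values (log axis) of 4 profiles that returned (top) and 4 other profiles described in the text (bottom). The bottom 4 are a selection and not the profiles of smallest p, and ssa-miR-107-3p was chosen after its values were seen. Each point is 1 library (circle, square and triangle for libraries 1, 2 and 3). Reoxygenation is left, 24 h hypoxia in the middle and control right, with bars at group means on the log2(value + 1) scale. ipu-miR-7550 lies at 1350 to 1653 after reoxygenation against 1669 to 3752 after hypoxia, and ssa-miR-29b-3p at 440 to 559 after reoxygenation against 178 to 423 after hypoxia.

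Besides miR-101b, the smallest unadjusted limma p on the high side included those of miR-29b, miR-130a and miR-27c. This ranking covers only profiles with a higher group mean of at least 50. With all libraries, none of miR-29b, miR-130a and miR-27c had an unadjusted p under 0.05. ssa-miR-29b-3p, whose family represses collagen genes in mammals, had 559, 499 and 440 after reoxygenation, 423, 227 and 178 after 24 h hypoxia, and 167, 195 and 402 in control. Reoxygenation lay wholly above both other groups. Its log2 difference from hypoxia was 0.95 ± 0.47 (95% interval -0.05 to 1.94), and 1.22 without libraries 1 (95% interval 0.08 to 2.36). ssa-miR-130a-2-3p_R-1_1ss9TC had 1876, 1170 and 939 after reoxygenation, 840, 705 and 463 after hypoxia, and 225, 669 and 1027 in control, a log2 difference of 0.97 ± 0.49. ssa-miR-27c-3p had 2332, 1011 and 1935 after reoxygenation and 1319, 852 and 614 after hypoxia, which overlapped.

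On the low side, forms of miR-7550 had the smallest unadjusted limma p among profiles with a higher group mean of at least 50. gmo-miR-7550-5p_L-1R+2_1 had 28, 122 and 50 after reoxygenation and 831, 98 and 229 after 24 h hypoxia, with a log2 difference of -2.23 ± 0.73 (95% interval -3.80 to -0.67). Its groups overlapped, and the highest value was library 1 of hypoxia. All 5 tested miR-7550 profiles had a negative difference, with a median of -2.07 and a range from -2.53 to -0.89, and 3 of them did not overlap. Without libraries 1 all 5 were again negative, with a median of -1.36, and 0 had an unadjusted limma p under 0.05. The forms can share reads and are not separate observations.

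ssa-miR-203b-3p_L+1, of an epithelial family, had 173, 167 and 435 after reoxygenation, 1650, 1684 and 224 after 24 h hypoxia, and 270, 901 and 363 in control. The groups overlapped through library 3 of hypoxia, and the log2 difference was -1.87 ± 0.75. ssa-miR-107-3p, outside the naming rule and chosen after its values were seen as an abundant profile without overlap, had 5212, 5547 and 5311 after reoxygenation, 9126, 7041 and 5842 after hypoxia, and 8231, 5342 and 4346 in control. The difference was -0.43 ± 0.31.

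The log2 difference between 12 h hypoxia and control uses none of the 6 libraries compared here, although those libraries do enter the pooled variance and the filter behind the calls. limma called 43 at 12 h (6.91%), 29 higher (4.66%) and 14 lower (2.25%). Of the 29 higher ones, 25 were higher after reoxygenation than after 24 h hypoxia and 4 lower, with a median log2 difference of 0.46, against 318 higher and 302 lower and a median of 0.03 over all 622. Of the 14 lower ones, 3 were higher and 11 lower, with a median of -0.58. Some of these profiles are forms or close relatives of the same miRNA, among them those of miR-19, miR-15a and miR-101. Such forms can share reads, so the 29 and the 14 are not separate observations. None of the 43 was called between reoxygenation and 24 h hypoxia, and 1 in each direction had an unadjusted limma p under 0.05. The median log2 difference from control of the 29 was 2.19 at 12 h, 1.57 at 24 h and 1.98 after reoxygenation, and that of the 14 was -2.97, -1.03 and -1.93. The profiles were chosen by the 12 h difference from control, which makes the 12 h medians large by the choice. The medians at 24 h and after reoxygenation share the control libraries of that choice, so the run of values is not a measured time course.

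The tilt was not even over libraries. Of the 29 profiles, 19, 16 and 28 were above the 24 h hypoxia mean in libraries 1, 2 and 3 of reoxygenation, and of the 14, 6, 7 and 2 were, beside 348, 297 and 288 of all 622. Library 3 was thus the one farthest from the split over all profiles. miR-122 took 56.1%, 55.7% and 60.2% of the column totals at 12 h, against 31.7%, 33.6% and 24.7% in control. In libraries 1, 2 and 3 of reoxygenation it took 57.2%, 26.5% and 52.9%. The part of this library make-up in the tilt was not tested. Without libraries 1 the 29 split 28 higher to 1 lower, with a median of 0.71, and the 14 split 1 to 11, with a median of -0.37. After a correction for GC content, which differs between these members (miR-101b at 31.8% and let-7g-3p_1ss8GA at 57.1%, with a median of 47.6% over all), the medians were 0.28 and -0.33, against 0.11 over all profiles. Across all 622 profiles the reoxygenation minus hypoxia difference had a Spearman correlation of -0.23 with GC content, and -0.40 without libraries 1. The part of GC content in the tilt was not tested beyond this correction.

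**Figure D5:**
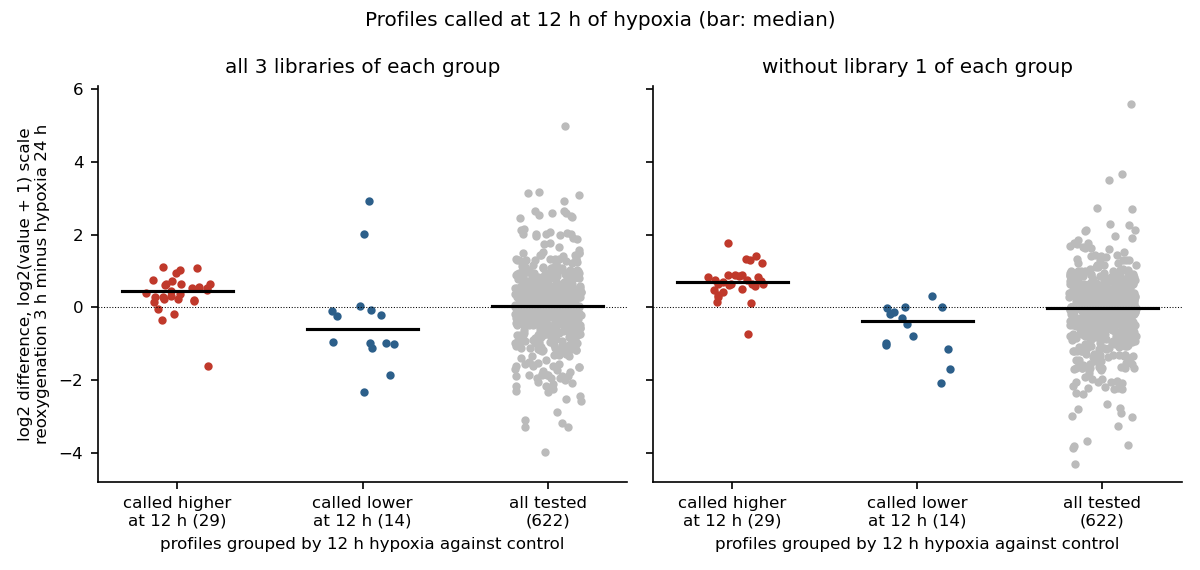
Log2 difference of reoxygenation minus 24 h hypoxia (vertical axis), 1 point per profile, for the 29 profiles called higher at 12 h, the 14 called lower and all 622 tested, with all libraries left and without libraries 1 right. Bars are medians, at 0.46, -0.58 and 0.03 left and at 0.71, -0.37 and -0.01 right.

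None of the most abundant miRNAs was called between the groups. miR-122, the main miRNA of hepatocytes, had values of 2733978, 703906 and 2228801 for ssa-miR-122-5p_R-1 after reoxygenation, 3647914, 1087693 and 708905 after 24 h hypoxia, and 1386724, 834238 and 512308 in control. The spread inside each group exceeded the difference between them, which was 0.20 ± 0.62. miR-122 took 57.2%, 26.5% and 52.9% of the column totals after reoxygenation, against 59.0%, 35.7% and 25.2% after 24 h hypoxia. ssa-miR-30b-5p_R-1, ssa-miR-22a-3p and ssa-miR-21b-5p had reoxygenation minus hypoxia differences of -0.85, -0.41 and 0.05.

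The teleost miR-462/731 cluster, which is known from zebrafish as a hypoxia-induced pair, had negative differences throughout. Of the 10 tested profiles 10 had a negative difference, with a median of -0.99, or -1.37 without libraries 1, and none passed limma. Forms in this list can share reads, so the 10 are not separate observations. ssa-miR-462a-5p had 75561, 91867 and 17102 after reoxygenation, 91268, 64214 and 177878 after 24 h hypoxia, and 135246, 44223 and 55725 in control. Its difference was -1.04 ± 0.60 with overlapping groups, in which library 3 was the lowest of reoxygenation and the highest of hypoxia. ssa-miR-731-5p had 7950, 46521 and 5411 after reoxygenation and 17663, 28295 and 46614 after hypoxia, a difference of -1.18 ± 0.62. Its controls were at 34483, 18658 and 21111. Neither miR-462a nor miR-731 was called between 24 h hypoxia and control. Those log2 differences were 0.55 and 0.26 (limma adjusted p = 0.656 and 0.855).

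miR-210, the best known hypoxia-induced miRNA of mammals, was not called in any of the 3 comparisons. ssa-miR-210-3p had 2501, 1003 and 1155 after reoxygenation, 1048, 1014 and 1138 after 24 h hypoxia, and 1018, 2578 and 2483 in control. Library 1 was the high one in reoxygenation and the low one in control, and the reoxygenation minus hypoxia difference of 0.42 became 0.00 without libraries 1. The passenger-strand form ccr-mir-210-p5_1ss17CT was chosen after its values were seen. It had 382, 170 and 217 after reoxygenation, 163, 150 and 125 after hypoxia, and 141, 137 and 131 in control. Reoxygenation lay wholly above both other groups, which overlapped each other.

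Of the other lists, with all profiles tested at a median of 0.03 and 0 of 622 called, none had a called member. The hypoxia-responsive list (81 tested) had a median difference of 0.05, the miR-17-92 clusters (38) 0.19, the hepatocyte list (85) 0.05, let-7 (31) 0.25 and the metabolic list (43) 0.08. In the same order, these medians without libraries 1 were -0.10, 0.23, 0.23, -0.0006 and 0.26, against -0.01 over all profiles. The red blood cell list (32) stood at 0.58 with 24 members higher and 8 lower, and at 0.07 without libraries 1. The white blood cell list (30) stood at 0.13, the endothelial and stromal list (31) at -0.39, the epithelial list (16) at -0.35, the muscle list (3) at -0.10 and the neural and endocrine list (8) at -0.45. In the same order, these medians without libraries 1 were -0.04, -0.32, -0.16, 0.61 and -0.58. Of the 15 tested profiles with the seed of miR-15/16, which overlap the red blood cell list, 14 were higher, with a median of 0.69, and 12 were higher without libraries 1, with a median of 0.56. The seed group was chosen after its values were seen.

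Markers of the cells of the liver were checked against the labelled tissue. The hepatocyte markers miR-122, miR-192 and miR-194 were present in every library. The muscle markers miR-1, miR-133 and miR-206 summed to at most 78 after reoxygenation, 144 after 24 h hypoxia and 139 in control. miR-499, on the muscle list but not among these markers, was more abundant. ssa-miR-499b-5p_R-1 had 1599, 1136 and 2283 after reoxygenation, 1905, 1434 and 777 after 24 h hypoxia, and 546, 529 and 367 in control. It thus stayed above every control in both treated groups. The neural markers miR-9 and miR-124 were at or under 16. The endocrine marker miR-375 summed to 438, 1319 and 1538 after reoxygenation, 2194, 2720 and 1707 after hypoxia, and 816, 1036 and 978 in control. Reoxygenation lay wholly below hypoxia in this sum of 4 profiles only. The single profile ssa-miR-375-3p overlapped, with 416, 1285 and 1515 after reoxygenation and 679, 2635 and 1674 after hypoxia. The endothelial marker miR-126 summed to 58346, 10299 and 23643 after reoxygenation, against 37784, 10597 and 11369 after 24 h hypoxia, with library 1 the highest in both. The epithelial and bile duct markers, miR-200 above all, summed to 16116, 1645 and 6702 after reoxygenation, 9149, 4422 and 3032 after hypoxia, and 10470, 8211 and 8573 in control. The red blood cell markers miR-144, miR-451 and miR-486 summed to 6735, 3089 and 4717 after reoxygenation, 1925, 3993 and 4543 after hypoxia, and 3284, 3010 and 8008 in control. In the hepatocyte, endothelial, epithelial and red blood cell sums library 1 of reoxygenation was the highest of its group. It was the lowest of its group in the muscle, neural and endocrine, stromal and white blood cell sums. The stromal markers summed to 96532, 122533 and 127812 after reoxygenation, 169960, 137062 and 162998 after hypoxia, and 126485, 142720 and 94115 in control. The white blood cell markers summed to 2925, 6746 and 4559 after reoxygenation, 2587, 6095 and 4528 after hypoxia, and 2376, 4491 and 4246 in control. The stromal sum lay wholly below hypoxia after reoxygenation, but miR-143, miR-145, miR-199 and miR-214 each overlapped between these groups when taken alone. The part of these markers in the results was not tested.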

How the data were processed

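Small RNA libraries of rainbow trout liver came from Trizol total RNA, per the labels' protocols. The deposited table holds 1 value per row and library, treated here as a score, since the authors normalized it to a scale that no source used here states and rounded it. The authors also deposited a p-value per row, from an unnamed test, which was not used. Aligner, catalogue and genome build: not given in the sources used here. Coordinates are left out for want of a genome.

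Rows with the same 15 values were merged, which left 150 profiles with several names and 19 with more than 1 sequence. Profiles with a mean of at least 10 were fitted as log2(value + 1), which compresses changes at low values, with limma 3.58.1 in R 4.3.3. The fit had a trended variance and all 5 groups, and p-values were Benjamini-Hochberg adjusted over all 622 profiles at 0.05. Intervals are at 95% from this fit. Named were the 8 smallest unadjusted p per direction with a higher group mean of at least 50 (since none passed), profiles called against control, the 5 most abundant stayed and returned profiles per direction, the 10 most abundant profiles, the 2 most abundant per list and sha-miR-92a_L+2R+4. Of those, the text describes the ones that show each pattern; profiles given as in between, the miR-15/16 seed group, miR-107 and miR-210-p5 were chosen after their values were seen. The 12 lists match by miRNA number and overlap. Members, lists and rules were chosen with earlier results of these data known. Data simulated for this comparison held 622 profiles, 200 of them changed. In these the fit called 12%, 48%, 82% and 80% of profiles changed by 1, 2, 3 and 4 on the log2 scale. False calls made up 1.77%. Such rates rest on the 200 changes put in, whereas the deposited values gave 0 calls between these groups. In the deposited values, library 1 of reoxygenation also stood apart from its group. Carry-over of the rates to the deposited values was not tested. Other pseudocounts, filters, scalings, variance models, summed forms, a replicate block and left-out libraries were tried. The GC correction (lowess, span 0.5) and the library-total scaling, each without libraries 1, were added after seeing the data.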

Additional observations from a re-analysis of the deposited data

How the results depend on the processing

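Between reoxygenation and 24 h hypoxia 0 profiles were called in every setting tried. Of 1770 values of this comparison for named profiles, 1734 moved by less than the replicate spread and 36 by more. Calls against control were less stable. For 24 h hypoxia (5 calls) they numbered 9 with a pseudocount of 5, 9 with 10, 11 with a mean of at least 50, 3 with library totals, 12 with quantile scaling, 108 with array weights, 8 with forms summed, 9 with GC correction, 40 without libraries 1, and 42 and 36 without them under GC correction and library totals. For reoxygenation (15 calls) they were 90 with array weights, 0 with the compared groups alone, 66 without libraries 1, and 65 and 57 without them under GC correction and library totals. Counts of stayed and returned profiles moved along with the number displaced. The 44 stayed of 90 displaced became 26 of 69 with forms summed and 26 of 52 with a mean of at least 50. They were 21 of 45 at a log2 difference of at least 2 and 129 of 169 without libraries 1. Under GC correction and library totals without libraries 1, they were 139 of 177 and 117 of 156. The 10 returned of 90 became 6 of 86 under GC correction and 5 of 52 with a mean of at least 50. They were 17 of 121 with no filter and 2 of 45 at a log2 difference of at least 2. They were 22 of 169 without libraries 1 and 19 of 156 without them under library totals. With 1 library left out at a time, calls ran from 3 to 25 after 24 h hypoxia, the highest without reoxygenation library 1, and from 3 to 50 after reoxygenation, the lowest without its library 3 and the highest without its library 1. Stayed profiles ran from 43 of 103 displaced to 118 of 184, the highest without control library 1. They were 72 of 90 without reoxygenation library 1. Returned profiles ran from 8 (of 90 or 116) to 30 of 169, the highest without hypoxia library 1. The 1 value to change sign with a call was ssa-miR-92b-3p between reoxygenation and control, at 1.49 under GC correction without libraries 1 against -0.23. Of 3540 named values against control, 87 lost and 121 gained a call. The causes were not tested beyond the construction of each setting.

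The replicate block changed no call of reoxygenation against 24 h hypoxia (0 called, 19 at an unadjusted p under 0.05) and gave 7 and 20 calls against control after 24 h hypoxia and reoxygenation. Equal library numbers of these groups correlated at 0.53, 0.35 and -0.03 in their deviations from the group means. Unequal numbers ranged from -0.55 to 0.42, and the pair of libraries 1 was the highest. Whether equal numbers share more than a number was not tested. The unknown read depth and 3 libraries a group limit every value.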

Other observations

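GC content differed between the profiles that stayed. Those that stayed high had a median GC content of 40.9% and those that stayed low 53.3%, beside 47.6% over all tested profiles. Between reoxygenation and 24 h hypoxia, the median log2 difference was 0.28 in the profiles of lowest GC content and -0.16 in those of highest, or 0.37 and -0.33 without libraries 1. This is a description across profiles, with no test, and the medians moved with the libraries.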
